A study of Mus musculus with 8 samples.

Results

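The genes of the translation initiation and elongation factors were described in cultured mouse kidney cells that received adenoviral Cre recombinase (Ad-Cre), set against cells that received adenoviral GFP (Ad-GFP). Members were taken by symbol, as the rows whose symbol begins with Eif1 to Eif6 or with Eef1 or Eef2, apart from a few symbols not analysed here, which gave 82 of the 22322 genes in the deposited table. The samples were 4 Ad-Cre libraries, labelled as Suv39h1 knockdown, and 4 Ad-GFP libraries, labelled as wild type. All 8 are labelled as primary renal fibroblasts from mouse kidney and were stimulated with TGF-β at 5 ng/ml for 48 hours, with no unstimulated cells among them. The sources used here do not give the mice's strain, sex or age, or the targeted Suv39h1 allele. Whether the replicates are separate cultures or animals is not stated, and a p-value here reflects only the spread among these 8 libraries, which may be technical. Values of single libraries are given in the order of replicates 1 to 4, and every test has n = 4 libraries per group. In bulk RNA, fewer cells of a type and less RNA per cell cannot be told apart.

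Protein synthesis starts when the eIF2 complex delivers the initiator tRNA to the small ribosomal subunit, with eIF3 as the scaffold and eIF1 and eIF1A guarding the choice of start codon. The eIF4F complex binds the mRNA cap through eIF4E, unwinds the leader with the eIF4A helicase and bridges to the ribosome through eIF4G, and the eIF4E-binding proteins block it when mTORC1 is inactive. Subunit joining needs eIF5 and eIF5B. During elongation eEF1A brings aminoacyl-tRNAs, the eEF1B subunits recharge it with GTP, eIF5A relieves stalled ribosomes and eEF2 moves the ribosome along. Many of these mRNAs, like those of ribosomal proteins, start with a terminal oligopyrimidine tract, through which mTORC1 and LARP1 control their translation.

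Ad-Cre libraries held 18006938 to 23940043 counts and Ad-GFP libraries 15879244 to 17930632, so every Ad-Cre library was deeper. Suv39h1 itself was at 25.3, 22.8, 21.6 and 22.6 CPM in the 4 Ad-Cre libraries, against 29.0, 27.8, 29.3 and 29.6 CPM in the 4 Ad-GFP libraries (edgeR adjusted p = 3.293e-05; exact permutation p = 0.0286, the smallest that 4 against 4 allow). The groups did not overlap, and most Suv39h1 mRNA remained, 79.6% of the Ad-GFP level. The label was checked against marker lists, whose genes ranged widely in level. Vim was the highest of the fibroblast markers (167 ± 7.7 CPM in Ad-Cre and 252 ± 5.7 CPM in Ad-GFP). Of the epithelial markers Krt8 was the highest and Krt19 the lowest (137 ± 2.0 CPM in Ad-Cre and 201 ± 4.5 CPM in Ad-GFP). All 9 fibroblast markers were detected, but several were low. Pdgfra was at 4.24 ± 0.50 CPM in Ad-Cre and 5.14 ± 0.46 CPM in Ad-GFP. Dcn was at 4.80 ± 2.2 CPM in Ad-Cre and 4.19 ± 0.56 CPM in Ad-GFP. Lum was at 0.289 ± 0.24 CPM in Ad-Cre and 0.173 ± 0.079 CPM in Ad-GFP. Thy1 was at 1.54 ± 0.42 CPM in Ad-Cre and 7.19 ± 0.43 CPM in Ad-GFP, a fall to 21.5% of Ad-GFP. Epithelial mRNA was abundant, with Krt8 at 1168 ± 18 CPM in Ad-Cre and 1504 ± 37 CPM in Ad-GFP. Cldn4 was at 1099 ± 27 CPM in Ad-Cre and 1141 ± 29 CPM in Ad-GFP. Cdh1 was at 677 ± 7.0 CPM in Ad-Cre and 700 ± 17 CPM in Ad-GFP. Epcam was at 326 ± 3.4 CPM in Ad-Cre and 276 ± 6.4 CPM in Ad-GFP. The labelled cells were therefore not free of epithelial RNA. The lists moved with the groups: the summed CPM of the 9 fibroblast markers was 468 to 542 in Ad-Cre and 731 to 779 in Ad-GFP (0 of 8 tested higher, 5 lower), of 5 myofibroblast markers 777 to 865 in Ad-Cre and 1377 to 1395 in Ad-GFP (0 higher, 5 lower), and of 5 cell cycle markers 79.1 to 89.3 in Ad-Cre and 145 to 156 in Ad-GFP (0 higher, 5 lower). For 7 epithelial markers it was 4677 to 4736 in Ad-Cre and 5192 to 5417 in Ad-GFP (1 higher, 5 lower), for 6 proximal tubule markers 162 to 186 in Ad-Cre and 114 to 129 in Ad-GFP (4 of 5 tested higher, 0 lower, Slc34a1 at or near 0), for 5 endothelial markers 44.9 to 52.6 in Ad-Cre and 97.7 to 103 in Ad-GFP (0 higher, 5 lower), and for 6 macrophage and leukocyte markers 181 to 192 in Ad-Cre and 201 to 228 in Ad-GFP (0 higher, 5 lower). The part of these cell type and cell cycle differences in the results that follow was not tested.

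Translation factor genes moved by small amounts and in both directions. Of the 82 genes, 61 passed the filter on low counts and were tested, and 14 were higher and 14 lower in Ad-Cre (edgeR's quasi-likelihood test, Benjamini-Hochberg adjusted p under 0.05 over all 13337 genes tested). These 28 are 45.9% of the tested members, against 40.3% of all genes tested, and 23.0% were called in each direction, against 19.8% of all genes called higher and 20.5% called lower. The share of members called is therefore near the background. The size of the changes was smaller: the median absolute log2 fold change was 0.06 over the 61 members and 0.12 over all genes tested. Among genes of at least 5 CPM it was 0.06 for 60 members and 0.10 for all 10692 genes. No called member moved beyond the range from 17.4% lower (Eif2b1) to 19.1% higher (Eif4a2). CPM values (counts scaled to the library total with TMM factors) did not overlap between the groups for 24 of the 61, 39.3% against 35.4% of all genes tested. With upper-quartile scaling 10 members were higher and 16 lower, and without Ad-GFP replicate 4 there were 9 higher and 14 lower.

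**Figure D1:**
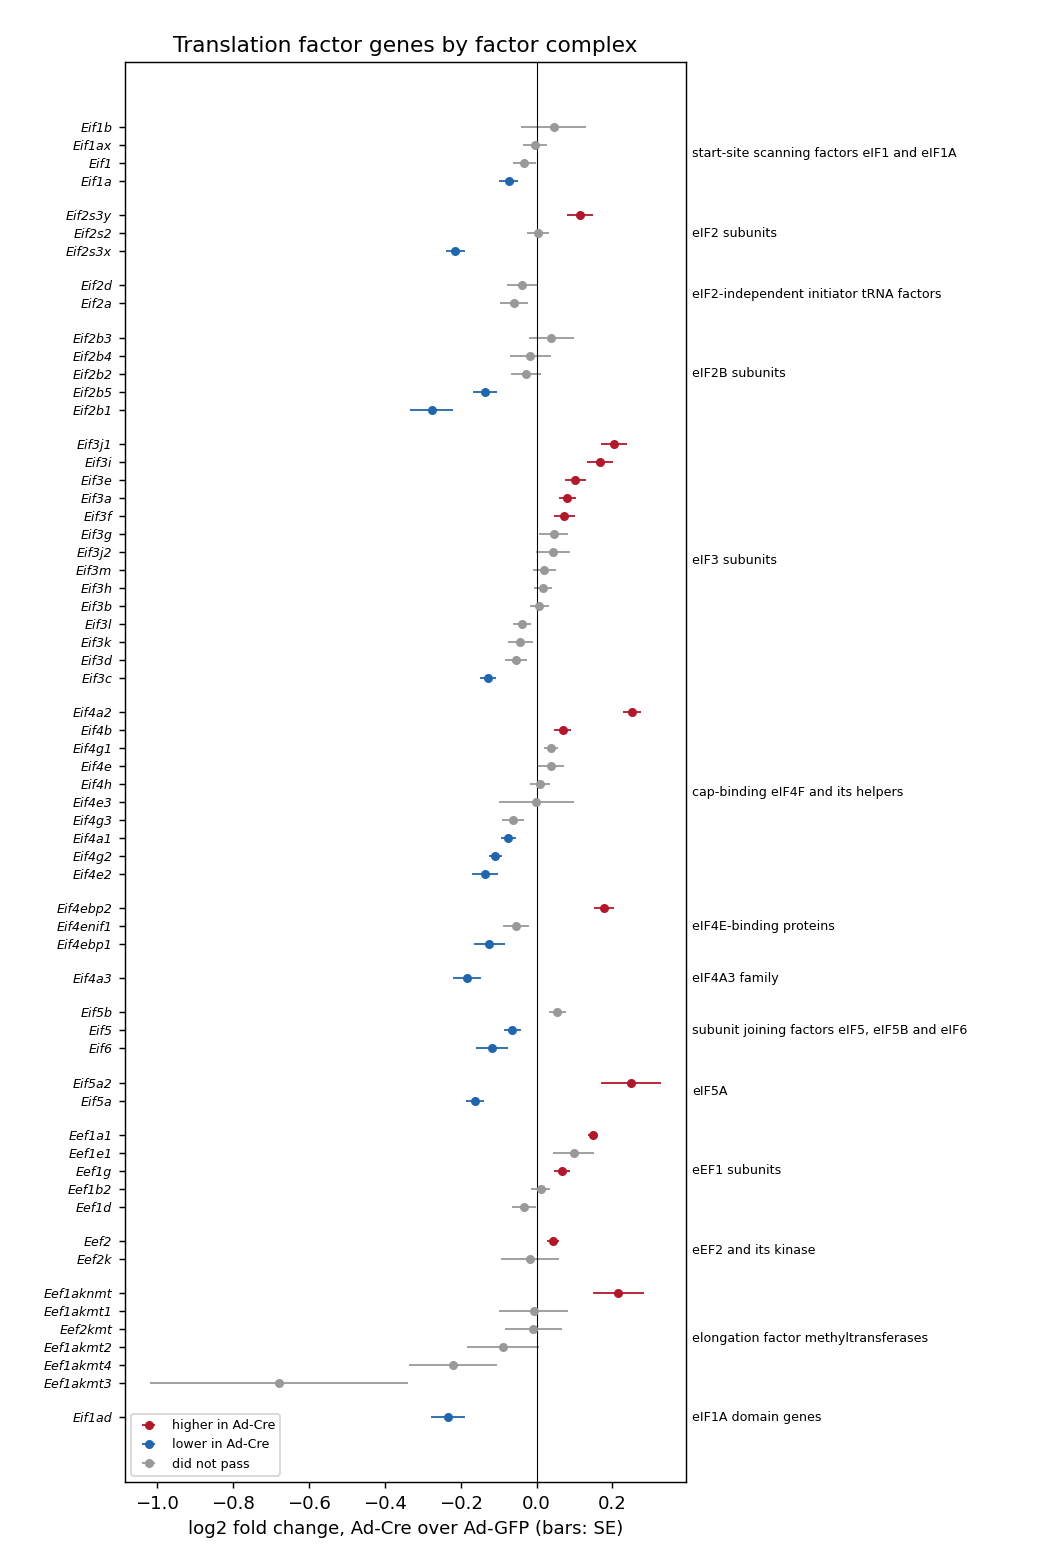
The 61 tested translation factor genes by complex, each point the log2 fold change of Ad-Cre over Ad-GFP with its standard error (horizontal axis). Red points passed the test as higher in Ad-Cre (14), blue points as lower (14), and grey points did not pass (33).

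**Figure D2:**
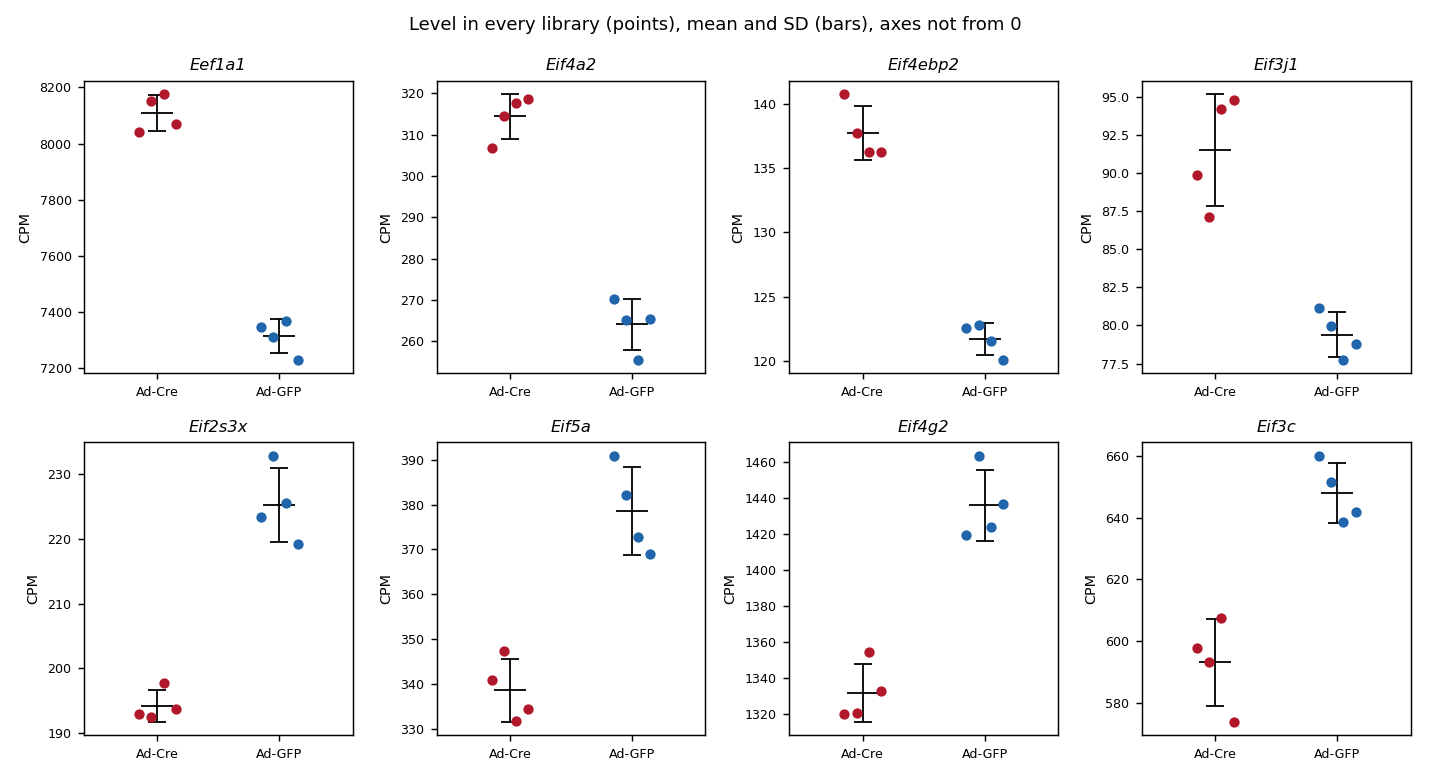
CPM in every library of the 4 members of smallest p in each direction (upper row higher in Ad-Cre, lower row lower), with the mean and SD of each group and axes that do not start at 0. In all 8 panels the 4 Ad-Cre libraries lie apart from the 4 Ad-GFP libraries.

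The 9 genes taken here as a class of terminal oligopyrimidine mRNAs rose or did not pass, and none fell. The class, from textbook knowledge, holds the elongation factor genes Eef1a1, Eef1b2, Eef1d, Eef1g and Eef2, the eIF3 subunit genes Eif3e, Eif3f and Eif3h, and Eif4b. Of these 9 genes 6 rose and 0 fell, and the median log2 fold change was 0.07, set against 0.0041 for all genes tested, of which 19.8% were called higher and 20.5% lower. The class was chosen with earlier results of these data known and is not a complete list of such mRNAs. Its counts, and the absence of falls, therefore only describe these 9 genes. Of the 52 tested members outside it 8 rose and 14 fell (median -0.02). Among those that fell is Eif2s3x, which has the longest run of C or T printed below (16 bases). The absence of falls thus depends on which genes the class holds, and whether Eif2s3x belongs to it was not tested. The class summed to 12570 to 12796 CPM in Ad-Cre and 11588 to 11785 CPM in Ad-GFP, most of it Eef1a1. The count depends on the processing: 2 of the 9 rose with upper-quartile factors, 3 with the filter of at least 5 CPM, 3 by limma on log2 FPKM and 3 without Ad-GFP replicate 4, and 0 fell under any alternative. The median stayed above 0 in all 19 alternatives.

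The sequence around the annotated transcript start (RefSeq, GRCm38.p6) was available for 5 of these 9 genes and is shown because the tract lies at the start of the mRNA, with the autosomal set followed by the X- and Y-linked pair described further on. Each line gives 30 bases before and 30 bases from the annotated start, and capitals mark the longest unbroken run of C or T on the sense strand, or the first of 2 runs of equal length (Eif4b and Eef1b2).
Eef2 (chr10:81176601-81176660, plus strand): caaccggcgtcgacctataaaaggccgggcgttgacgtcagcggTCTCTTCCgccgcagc
Eif3f (chr7:108934385-108934444, plus strand): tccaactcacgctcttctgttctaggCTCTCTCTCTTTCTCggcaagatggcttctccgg
Eef1a1 (chr9:78481695-78481754, minus strand): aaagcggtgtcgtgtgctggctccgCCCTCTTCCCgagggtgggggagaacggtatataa
Eif4b (chr15:102073743-102073802, plus strand): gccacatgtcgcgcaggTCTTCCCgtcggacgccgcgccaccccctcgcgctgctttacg
Eef1b2 (chr1:63176801-63176860, plus strand): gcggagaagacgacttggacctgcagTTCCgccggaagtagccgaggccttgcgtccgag
Eif2s3x (chrX:94212622-94212681, minus strand): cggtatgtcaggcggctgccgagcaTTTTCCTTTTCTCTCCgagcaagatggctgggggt
Eif2s3y (chrY:1010565-1010624, plus strand): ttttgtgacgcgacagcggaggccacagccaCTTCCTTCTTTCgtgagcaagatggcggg
A run at least as long as the 15 bases of Eif3f occurs in 2.33% of the 32851 windows of this kind in the RefSeq table, one as long as the 10 bases of Eef1a1 in 10.9%, and one as long as the 8 bases of Eef2 in 22.9%. The 7 bases of Eif4b and 4 bases of Eef1b2 are common lengths, at 33.8% and 88.4% of windows. Relative to the annotated start, the marked runs begin at base -5 in Eef1a1, -4 in Eif3f, -13 in Eif4b, -4 in Eef1b2 and 14 in Eef2. Those of Eif4b and Eef1b2 end before the annotated start, and that of Eef2 begins well after it. The Eef1a1 window ends in a TATA-like stretch that lies downstream of its marked run, so that run need not be part of the mRNA. In the Eef2 window such a stretch lies before the annotated start, upstream of the marked run. Annotated starts can lie away from the start that cells use. These runs are a description of the windows and not a map of tracts.

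Among the start-site scanning factors 1 of 4 fell and the others did not pass, against 20.5% of all genes called lower. Eif1a, which encodes the eIF1A protein that helps the scanning ribosome recognise the start codon, was at 203, 214, 213 and 210.1 CPM in the 4 Ad-Cre libraries, against 225, 225, 218 and 216 CPM in the 4 Ad-GFP libraries. The groups did not overlap, with a log2 fold change of -0.07 ± 0.025 (SE; edgeR adjusted p = 0.02105). It did not hold without Ad-GFP replicate 1 (adjusted p = 0.05858), without Ad-GFP replicate 2 (adjusted p = 0.07072), without Ad-Cre replicate 1 (adjusted p = 0.06757) or by limma on log2 FPKM (adjusted p = 0.09414 to 0.113). Its X-linked paralog Eif1ax was at 104 ± 3.8 CPM in Ad-Cre and 105 ± 2.5 CPM in Ad-GFP (SD, n = 4 each) and did not pass (adjusted p = 0.9446). Per length, the most abundant gene of this set was Eif1, at 179, 201, 189 and 188 FPKM in the 4 Ad-Cre libraries, against 205, 199, 196 and 187 FPKM in the 4 Ad-GFP libraries, and its adjusted p was 0.4339. Eif1b, its minor paralog, had an adjusted p = 0.7041.

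The eIF2 genes were split, with the X-linked and the Y-linked copy of the gamma subunit moving in opposite directions. The gamma subunit of eIF2 holds GTP and the initiator tRNA, and in the mouse it is encoded by Eif2s3x on the X chromosome (chromosome X at 94188707 to 94212862, minus strand) and by Eif2s3y on the Y chromosome (chromosome Y at 1010543 to 1028847, plus strand, GRCm38). Eif2s3x was at 193, 192, 198 and 194 CPM in the 4 Ad-Cre libraries, against 223, 233, 226 and 219 CPM in the 4 Ad-GFP libraries. Every Ad-Cre library lay below every Ad-GFP library, with a log2 fold change of -0.21 ± 0.025 (SE; edgeR adjusted p = 1.192e-07). Eif2s3y was at 76.8, 72.4, 73.0 and 74.4 CPM in the 4 Ad-Cre libraries, against 69.0, 69.1, 69.6 and 65.7 CPM in the 4 Ad-GFP libraries. Here all Ad-Cre libraries were the higher ones, with a log2 fold change of 0.12 ± 0.035 (SE; edgeR adjusted p = 0.009477). Both genes kept their calls in all 19 alternatives.

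Eif2s3y transcripts were present in all 8 libraries, so each library held RNA from male cells. Its share of the summed FPKM (the authors' unit, scaled to gene length and library size) of both copies was 43.1, 42.2, 41.9 and 43.3% in the 4 Ad-Cre libraries, against 37.8, 37.1, 38.0 and 36.4% in the 4 Ad-GFP libraries, without overlap. The sum of both copies was 94.0 ± 1.6 FPKM in Ad-Cre and 100.5 ± 1.4 FPKM in Ad-GFP (SD, n = 4 each), lower in every Ad-Cre library, and the X-linked copy was the more abundant one per length. The copies are close in sequence, so how reads were split between them is uncertain. In the windows printed above, the longest C or T run was 16 bases in Eif2s3x and 12 bases in Eif2s3y, and runs at least that long occur in 1.78% and 5.56% of all windows. Another X and Y pair of the initiation machinery, the helicase genes Ddx3x and Ddx3y, did not follow the same pattern: Ddx3y was at 90.1 ± 4.5 CPM in Ad-Cre and 102 ± 2.6 CPM in Ad-GFP (SD, n = 4 each; adjusted p = 0.0001819), lower in Ad-Cre, and Ddx3x at 563 ± 8.7 CPM in Ad-Cre and 586 ± 23 CPM in Ad-GFP (adjusted p = 0.05897). The beta subunit gene Eif2s2, the most abundant member of the complex per length, was at 104, 113, 110.0 and 108 FPKM in the 4 Ad-Cre libraries, against 116, 108, 109.9 and 107 FPKM in the 4 Ad-GFP libraries (edgeR adjusted p = 0.9358). The groups overlapped.

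Of the 5 subunit genes of eIF2B, the exchange factor that recharges eIF2 with GTP and is the target of the integrated stress response, 2 fell and 0 rose. Of all genes tested 20.5% were called lower and 19.8% higher. Eif2b1, which encodes the regulatory alpha subunit, lies on chromosome 5 at 124570213 to 124579131, minus strand. Its levels were 35.4, 30.9, 35.6 and 34.5 CPM in the 4 Ad-Cre libraries, against 39.2, 43.1, 44.9 and 37.3 CPM in the 4 Ad-GFP libraries. This was the largest fall among the called members, a log2 fold change of -0.28 ± 0.057 (SE; edgeR adjusted p = 0.000353), at 82.6% of Ad-GFP. Eif2b5, for the catalytic epsilon subunit, was at 83.0, 80.5, 82.1 and 84.3 CPM in the 4 Ad-Cre libraries, against 91.7, 89.0, 88.1 and 93.4 CPM in the 4 Ad-GFP libraries. Its log2 fold change of -0.13 ± 0.032 (SE; edgeR adjusted p = 0.001387) came with groups that did not overlap. Per length, Eif2b5 and Eif2b2 led the set at like levels, Eif2b5 at 32.1 FPKM in Ad-Cre and 35.7 FPKM in Ad-GFP and Eif2b2 at 32.1 FPKM in Ad-Cre and 33.5 FPKM in Ad-GFP. Eif2b2, Eif2b3 and Eif2b4 had adjusted p-values of 0.5986, 0.626 and 0.8372, and their log2 fold changes lay between -0.03 and 0.04. Of the factors that can bring initiator tRNA without eIF2, Eif2a was at 61.9, 59.9, 60.1 and 59.1 CPM in the 4 Ad-Cre libraries, against 64.3, 62.6, 63.7 and 60.2 CPM in the 4 Ad-GFP libraries (adjusted p = 0.2053), and Eif2d had an adjusted p = 0.4876. Neither passed.

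The eIF3 scaffold had 5 of its 14 genes higher, 1 lower and 8 that did not pass, against 19.8% of all genes called higher and 20.5% lower. The count was 4 higher and 2 lower with upper-quartile factors and without Ad-GFP replicate 1, and 3 higher and 1 lower by limma on log2 FPKM. The summed FPKM of the 14 genes was 1378 ± 18 FPKM in Ad-Cre and 1390.1 ± 14 FPKM in Ad-GFP (SD, n = 4 each), and the groups overlapped. The largest rise was in Eif3j1, for the loosely bound j subunit that helps recruit the complex to the ribosome, on chromosome 2 at 122028546 to 122056598, plus strand. Eif3j1 was at 89.9, 87.1, 94.2 and 94.8 CPM in the 4 Ad-Cre libraries, against 81.1, 80.0, 77.7 and 78.8 CPM in the 4 Ad-GFP libraries, with a log2 fold change of 0.20 ± 0.034 (SE; edgeR adjusted p = 2.556e-05). The groups did not overlap. Its close copy Eif3j2 was at 45.7 ± 2.4 CPM in Ad-Cre and 44.4 ± 1.2 CPM in Ad-GFP (SD, n = 4 each) and did not pass (adjusted p = 0.4787). How reads were divided over these like copies is uncertain. Spg11 on the opposite strand shares 1107 exonic bases with Eif3j1, and the sources used here do not say whether counting was stranded.

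Eif3i, a WD-repeat subunit, was at 80.5, 81.0, 80.1 and 79.0 CPM in the 4 Ad-Cre libraries, against 66.9, 73.3, 72.9 and 72.4 CPM in the 4 Ad-GFP libraries. It rose in Ad-Cre, with a log2 fold change of 0.17 ± 0.035 (SE; edgeR adjusted p = 0.0003761), and the Ad-GFP spread came mainly from the low replicate 1. Eif3e, of the core octamer of the complex, was at 154, 156, 160.5 and 160.2 CPM in the 4 Ad-Cre libraries, against 147, 152, 147 and 142 CPM in the 4 Ad-GFP libraries. Its log2 fold change of 0.10 ± 0.027 (SE; edgeR adjusted p = 0.003939) left no overlap between the groups. Eif3a, the largest subunit and core scaffold, was at 856, 827, 885 and 823 CPM in the 4 Ad-Cre libraries, against 806, 786, 813 and 801 CPM in the 4 Ad-GFP libraries. It rose by little, a log2 fold change of 0.08 ± 0.022 (SE; edgeR adjusted p = 0.004611). It did not hold by limma on log2 FPKM (adjusted p = 0.1106 to 0.1372). Eif3f, also of the core octamer, was at 183, 175, 180.5 and 172 CPM in the 4 Ad-Cre libraries, against 169, 174, 167 and 164 CPM in the 4 Ad-GFP libraries. The groups overlapped, with a log2 fold change of 0.07 ± 0.027 (SE; edgeR adjusted p = 0.03509). Its call rested on small margins: it did not pass without Ad-GFP replicate 1 (adjusted p = 0.06871), without Ad-GFP replicate 3 (adjusted p = 0.09402), without Ad-GFP replicate 4 (adjusted p = 0.1052), without Ad-Cre replicate 1 (adjusted p = 0.1159), without Ad-Cre replicate 3 (adjusted p = 0.09534), with upper-quartile factors (adjusted p = 0.1212), with a floor of 5 CPM (adjusted p = 0.08986), by DESeq2 (adjusted p = 0.05396) or by limma on log2 FPKM (adjusted p = 0.1981 to 0.2229).

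Eif3c, another core scaffold subunit, was the one eIF3 gene that fell. It lies on chromosome 7 at 126546455 to 126566411, minus strand. Its levels were 598, 593, 607 and 574 CPM in the 4 Ad-Cre libraries, against 660.1, 652, 639 and 642 CPM in the 4 Ad-GFP libraries. All Ad-Cre libraries were lower, with a log2 fold change of -0.13 ± 0.021 (SE; edgeR adjusted p = 2.311e-05). Eif3c was also the most abundant eIF3 gene per length, at 207 FPKM in Ad-Cre and 229 FPKM in Ad-GFP, ahead of Eif3h at 167 FPKM in Ad-Cre and 167 FPKM in Ad-GFP and Eif3a at 164 FPKM in Ad-Cre and 157 FPKM in Ad-GFP. At the low end stood Eif3j2 at 19.0 FPKM in Ad-Cre and 18.8 FPKM in Ad-GFP and Eif3j1 at 16.8 FPKM in Ad-Cre and 14.8 FPKM in Ad-GFP. The other 7 subunit genes that did not pass (Eif3b, Eif3d, Eif3g, Eif3h, Eif3k, Eif3l and Eif3m) had log2 fold changes between -0.05 and 0.05. Eif3d passed as lower without Ad-GFP replicate 1 (adjusted p = 0.04974) and with upper-quartile factors (adjusted p = 0.04274).

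**Figure D3:**
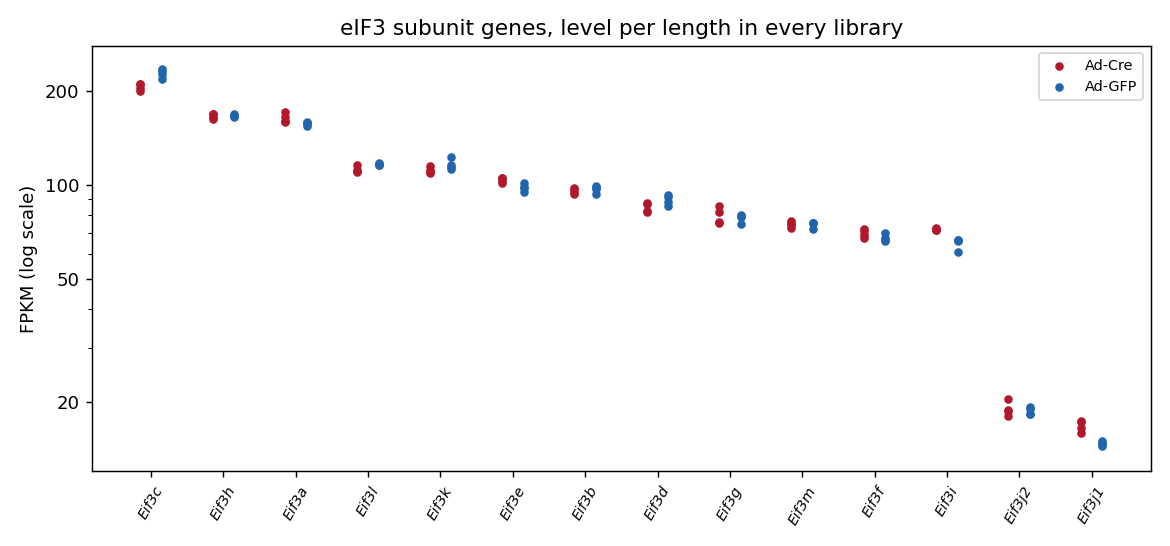
FPKM (log scale) of the 14 eIF3 subunit genes in every library, Ad-Cre in red and Ad-GFP in blue, ordered by mean level. Eif3c stands highest and is lower in every Ad-Cre library, Eif3e, Eif3i and Eif3j1 are higher in every Ad-Cre library, and the 2 j subunit genes lie far below the rest.

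In the cap-binding machinery the genes of the eIF4A helicase moved apart. Eif4a2 (chromosome 16 at 23107444 to 23114136, plus strand) had the largest rise of all called members and Eif4a1 (chromosome 11 at 69666936 to 69672423, minus strand), its more abundant paralog, fell slightly. Eif4a2 was at 307, 314, 318 and 319 CPM in the 4 Ad-Cre libraries, against 270.3, 265, 255 and 265 CPM in the 4 Ad-GFP libraries. The groups lay well apart, with a log2 fold change of 0.25 ± 0.024 (SE; edgeR adjusted p = 3.031e-09) and 119% of Ad-GFP. Eif4a1, which led this complex per length at 543 FPKM in Ad-Cre and 583 FPKM in Ad-GFP, was at 819.6, 822, 821 and 825 CPM in the 4 Ad-Cre libraries, against 868, 883, 863 and 847 CPM in the 4 Ad-GFP libraries. Its log2 fold change of -0.07 ± 0.019 (SE; edgeR adjusted p = 0.002649) was small, but the groups did not overlap. Both calls held in all 19 alternatives.

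Eif4a2 therefore took a larger share of the helicase mRNA in Ad-Cre. Its share of the summed FPKM of both genes was 24.8, 24.9, 24.9 and 25.4% in the 4 Ad-Cre libraries, against 21.6, 19.98, 20.5 and 21.4% in the 4 Ad-GFP libraries. The sum of both did not separate the groups, at 724 ± 9.0 FPKM in Ad-Cre and 736 ± 13 FPKM in Ad-GFP (SD, n = 4 each). Exons of Eif4a2 overlap those of Rfc4 on the other strand over 194 bases. The genes of the helicase stimulators differed too. Eif4b, which stimulates eIF4A downstream of S6 kinase, was at 488, 469, 478 and 477 CPM in the 4 Ad-Cre libraries, against 466, 461, 449 and 447 CPM in the 4 Ad-GFP libraries. It rose slightly, with a log2 fold change of 0.07 ± 0.021 (SE; edgeR adjusted p = 0.0125), a call that ended without Ad-GFP replicate 3 (adjusted p = 0.05149) or with upper-quartile factors (adjusted p = 0.06984). Eif4h, of related function, did not pass (adjusted p = 0.81).

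Among the eIF4G scaffolds, the gene of the atypical member fell. Eif4g2, also known as DAP5, lacks the eIF4E-binding site and serves cap-independent and alternative initiation. It was at 1319.8, 1321, 1354 and 1333 CPM in the 4 Ad-Cre libraries, against 1419, 1463, 1423 and 1437 CPM in the 4 Ad-GFP libraries. Every Ad-Cre library was lower, with a log2 fold change of -0.11 ± 0.018 (SE; edgeR adjusted p = 2.17e-05). Its share of the summed FPKM of the 3 scaffold genes was 55.7, 57.7, 57.0 and 56.9% in the 4 Ad-Cre libraries, against 58.9, 59.4, 58.6 and 58.5% in the 4 Ad-GFP libraries. Eif4g1, the main scaffold of eIF4F, was at 841, 817, 843 and 828 CPM in the 4 Ad-Cre libraries, against 827, 810.3, 794 and 809 CPM in the 4 Ad-GFP libraries, and did not pass (adjusted p = 0.1187). Eif4g3 was at 290.4, 266, 283 and 280.1 CPM in the 4 Ad-Cre libraries, against 289, 279, 290.4 and 309.9 CPM in the 4 Ad-GFP libraries. These groups overlapped (adjusted p = 0.09426), although Eif4g3 passed as lower without Ad-GFP replicate 2 (adjusted p = 0.03581), without Ad-Cre replicate 1 (adjusted p = 0.0362), with upper-quartile factors (adjusted p = 0.02592) and with a floor of 5 CPM (adjusted p = 0.03191).

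The gene of the cap-binding protein itself did not pass, while that of its repressive homolog fell. Eif4e was at 94.7, 90.1, 101 and 96.9 CPM in the 4 Ad-Cre libraries, against 92.4, 97.9, 92.0 and 90.4 CPM in the 4 Ad-GFP libraries (adjusted p = 0.4324), with overlapping groups. Eif4e2, whose product 4EHP binds the cap without eIF4G and represses translation of selected mRNAs, was at 80.6, 81.8, 83.3 and 84.6 CPM in the 4 Ad-Cre libraries, against 91.7, 88.7, 87.1 and 95.9 CPM in the 4 Ad-GFP libraries. It fell, with a log2 fold change of -0.14 ± 0.034 (SE; edgeR adjusted p = 0.002197). Eif4e3 was at 7.34 ± 0.62 CPM in Ad-Cre and 7.34 ± 0.28 CPM in Ad-GFP (SD, n = 4 each; adjusted p = 0.9972). The share of Eif4e2 in the summed FPKM of these 3 genes overlapped between the groups.

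**Figure D4:**
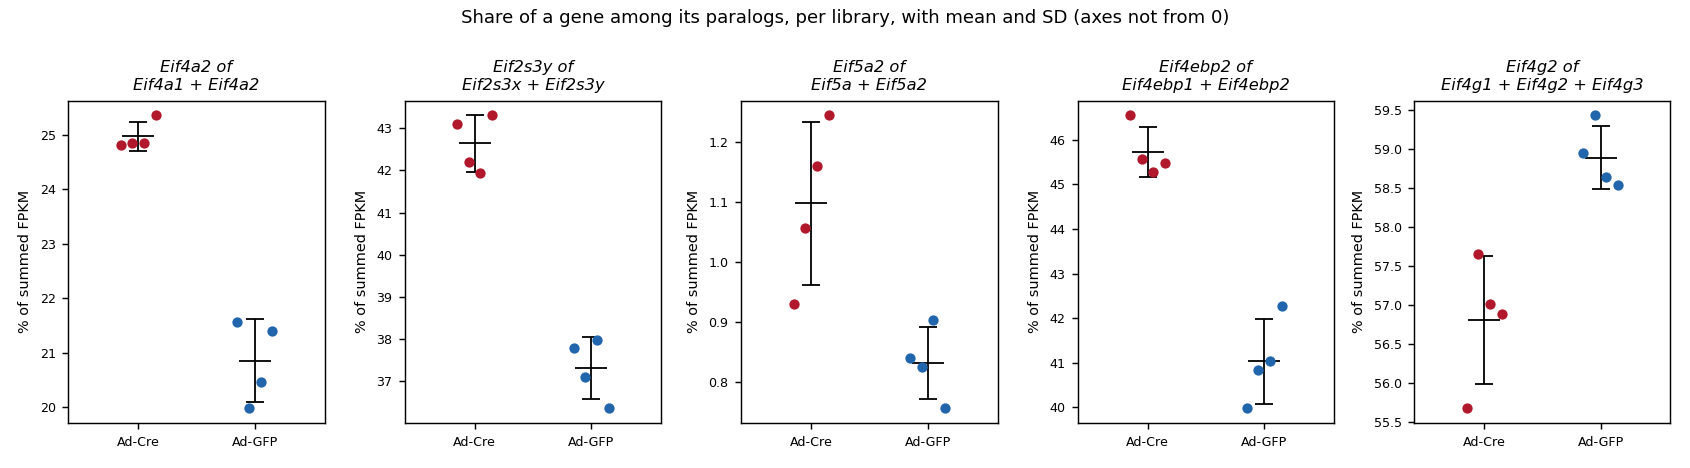
Share of a gene in the summed FPKM of its paralogs (percent, vertical axes not from 0), one point per library, with the mean and SD of each group. These are the 5 of 11 shares computed whose groups did not overlap, chosen after their values were seen: Eif4a2, Eif2s3y, Eif5a2 and Eif4ebp2 took a larger share in Ad-Cre and Eif4g2 a smaller one.

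The genes of the eIF4E-binding proteins, which compete with eIF4G for eIF4E unless mTORC1 phosphorylates them, also moved apart. Eif4ebp2 (chromosome 10 at 61428491 to 61452661, minus strand) was at 141, 138, 136 and 136 CPM in the 4 Ad-Cre libraries, against 123, 123, 122 and 120.1 CPM in the 4 Ad-GFP libraries. It rose, without overlap and with a log2 fold change of 0.18 ± 0.026 (SE; edgeR adjusted p = 5.944e-06). Eif4ebp1 (chromosome 8 at 27260329 to 27276674, plus strand), the more abundant of the pair per length at 28.3 FPKM in Ad-Cre and 31.3 FPKM in Ad-GFP, was at 55.8, 58.7, 56.9 and 56.4 CPM in the 4 Ad-Cre libraries, against 64.4, 61.4, 65.4 and 57.1 CPM in the 4 Ad-GFP libraries. The groups overlapped, and its log2 fold change of -0.12 ± 0.041 (SE; edgeR adjusted p = 0.0175) did not pass without Ad-GFP replicate 1 (adjusted p = 0.06357) or without Ad-GFP replicate 3 (adjusted p = 0.07838). The share of Eif4ebp2 in the summed FPKM of both was 46.5, 45.6, 45.3 and 45.5% in the 4 Ad-Cre libraries, against 40.0, 40.8, 41.0 and 42.3% in the 4 Ad-GFP libraries, again without overlap. Eif4enif1, which carries eIF4E into the nucleus, did not pass (adjusted p = 0.2356). The total over the family did not separate the groups, at 274 ± 3.0 CPM in Ad-Cre and 266 ± 6.7 CPM in Ad-GFP (SD, n = 4 each). Eif4a3, a core protein of the exon junction complex rather than of eIF4F, was at 66.1, 64.9, 69.4 and 65.2 CPM in the 4 Ad-Cre libraries, against 72.4, 78.9, 75.2 and 74.9 CPM in the 4 Ad-GFP libraries. It fell, with a log2 fold change of -0.18 ± 0.036 (SE; edgeR adjusted p = 0.0002174) and no overlap.

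Of the factors that act at subunit joining 2 of 3 fell, a small set, against 20.5% of all genes called lower. Eif5, which triggers GTP hydrolysis by eIF2 at the start codon, was at 389, 393, 390.2 and 389 CPM in the 4 Ad-Cre libraries, against 421, 407, 404 and 399 CPM in the 4 Ad-GFP libraries. Its log2 fold change of -0.06 ± 0.022 (SE; edgeR adjusted p = 0.02143) did not pass without Ad-GFP replicate 1 (adjusted p = 0.0847). Eif6, which keeps large subunits from joining too early, was at 68.5, 70.1, 68.2 and 70.7 CPM in the 4 Ad-Cre libraries, against 72.6, 76.0, 83.0 and 69.5 CPM in the 4 Ad-GFP libraries. The groups overlapped, with a log2 fold change of -0.12 ± 0.042 (SE; edgeR adjusted p = 0.02597), and the call ended without Ad-GFP replicate 2 (adjusted p = 0.06275), without Ad-GFP replicate 3 (adjusted p = 0.1722), without Ad-Cre replicate 3 (adjusted p = 0.06826), by DESeq2 (adjusted p = 0.05804) or by limma on log2 FPKM (adjusted p = 0.05631 to 0.08886). Eif5b, the joining GTPase, was at 311 ± 2.6 CPM in Ad-Cre and 299 ± 6.7 CPM in Ad-GFP (SD, n = 4 each) and did not pass (adjusted p = 0.05467), though it passed as higher without Ad-GFP replicate 1 (adjusted p = 0.0253), without the filter (adjusted p = 0.04066) and by limma-voom (adjusted p = 0.04128). Exons of Eif5b and of Rev1 on the other strand overlap over 1643 bases.

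The pair of eIF5A genes, whose products carry the modified residue hypusine, moved in opposite directions. Eif5a (chromosome 11 at 69916714 to 69921958, minus strand) was at 341, 347, 332 and 334 CPM in the 4 Ad-Cre libraries, against 391, 382, 373 and 369 CPM in the 4 Ad-GFP libraries. It fell in every Ad-Cre library, with a log2 fold change of -0.16 ± 0.023 (SE; edgeR adjusted p = 4.219e-06). Eif5a2, a minor paralog at 3.32 FPKM in Ad-Cre and 2.85 FPKM in Ad-GFP, was at 14.4, 16.8, 17.4 and 18.7 CPM in the 4 Ad-Cre libraries, against 14.7, 14.2, 15.2 and 12.6 CPM in the 4 Ad-GFP libraries. These groups overlapped, with a log2 fold change of 0.25 ± 0.079 (SE; edgeR adjusted p = 0.01407), a call that ended without Ad-GFP replicate 4 (adjusted p = 0.06173), without Ad-Cre replicate 4 (adjusted p = 0.07093) or by limma on log2 FPKM (adjusted p = 0.1231 to 0.1804). The share of Eif5a2 in the summed FPKM of the pair was 0.930, 1.06, 1.16 and 1.24% in the 4 Ad-Cre libraries, against 0.840, 0.825, 0.903 and 0.756% in the 4 Ad-GFP libraries. It stayed close to 1% throughout, so the total followed Eif5a, at 303 ± 8.7 FPKM in Ad-Cre and 342 ± 7.5 FPKM in Ad-GFP (SD, n = 4 each).

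Of the 7 tested genes for elongation factor subunits, the eEF2 kinase and Eef1e1, 3 rose and 0 fell, against 19.8% of all genes called higher and 20.5% lower. Of the 3 calls Eef1a1 held in all 19 alternatives while Eef1g was lost in 6 and Eef2 in 9. Eef1a1 (chromosome 9 at 78478449 to 78489151, minus strand), the main eEF1A gene and the most abundant member by far, was at 8041, 8151, 8176 and 8070.0 CPM in the 4 Ad-Cre libraries, against 7347, 7312, 7368 and 7228 CPM in the 4 Ad-GFP libraries. All Ad-Cre libraries were higher, with a log2 fold change of 0.15 ± 0.014 (SE; edgeR adjusted p = 2.379e-09), 111% of Ad-GFP. The total of the family separated the groups only with this gene included: all 82 members summed to 22353 ± 167 CPM in Ad-Cre and 21612 ± 172 CPM in Ad-GFP (SD, n = 4 each), without overlap, but the members other than Eef1a1 summed to 14243 ± 125 CPM in Ad-Cre and 14299 ± 128 CPM in Ad-GFP (SD, n = 4 each), with overlap. Its paralog Eef1a2, the muscle and neuron form, was nearly absent, with 0, 2, 3 and 2 counts in the Ad-Cre libraries and 2, 0, 1 and 0 counts in the Ad-GFP libraries.

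The exchange factor subunits that recharge eEF1A did not move as one. Eef1g, the gamma subunit gene, was at 556, 556, 558 and 544 CPM in the 4 Ad-Cre libraries, against 532, 537, 531 and 513 CPM in the 4 Ad-GFP libraries. Its rise was slight, a log2 fold change of 0.07 ± 0.021 (SE; edgeR adjusted p = 0.01234), and did not pass without Ad-GFP replicate 4 (adjusted p = 0.05383), with upper-quartile factors (adjusted p = 0.07645), with a floor of 5 CPM (adjusted p = 0.05094) or by limma on log2 FPKM (adjusted p = 0.123 to 0.1466). Eef1b2 was at 284 ± 3.2 CPM in Ad-Cre and 282 ± 11 CPM in Ad-GFP (SD, n = 4 each; adjusted p = 0.7634) and Eef1d at 105 ± 3.8 CPM in Ad-Cre and 108 ± 1.5 CPM in Ad-GFP (SD, n = 4 each; adjusted p = 0.4167). Neither passed. Eef1e1, grouped here by its symbol, belongs to the multisynthetase complex. It did not pass either (adjusted p = 0.157), except as higher without Ad-GFP replicate 1 (adjusted p = 0.03229).

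Eef2, the translocase gene, was at 2609, 2572, 2628 and 2546 CPM in the 4 Ad-Cre libraries, against 2512, 2514, 2529 and 2489.8 CPM in the 4 Ad-GFP libraries. The groups did not overlap, but the difference was the smallest of the called members, a log2 fold change of 0.04 ± 0.016 (SE; edgeR adjusted p = 0.03242), and it did not pass without Ad-GFP replicate 1 (adjusted p = 0.05748), without Ad-GFP replicate 4 (adjusted p = 0.07139), without Ad-Cre replicate 1 (adjusted p = 0.07996), without Ad-Cre replicate 3 (adjusted p = 0.1093), with upper-quartile factors (adjusted p = 0.2546), with a floor of 5 CPM (adjusted p = 0.1794) or by limma on log2 FPKM (adjusted p = 0.3579 to 0.4737). The gene of its inhibitory kinase, Eef2k, was at 13.8 ± 1.0 CPM in Ad-Cre and 13.99 ± 1.1 CPM in Ad-GFP (SD, n = 4 each; adjusted p = 0.8784).

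Of 6 genes for methyltransferases that modify the elongation factors 1 rose, near the 19.8% of all genes called higher. Eef1aknmt, also known as Mettl13, which methylates eEF1A at its N terminus and at a lysine, was at 18.6, 18.1, 19.6 and 20.3 CPM in the 4 Ad-Cre libraries, against 17.3, 17.4, 16.5 and 14.7 CPM in the 4 Ad-GFP libraries. The groups did not overlap, with a log2 fold change of 0.21 ± 0.067 (SE; edgeR adjusted p = 0.0125), and the call ended without Ad-GFP replicate 4 (adjusted p = 0.05891) or by limma on log2 FPKM (adjusted p = 0.1072 to 0.1516). Eef2kmt, which modifies eEF2, was the most abundant of these genes per length, at 12.8, 10.5, 11.2 and 10.4 FPKM in the 4 Ad-Cre libraries, against 11.9, 11.01, 12.04 and 11.6 FPKM in the 4 Ad-GFP libraries, and did not pass (adjusted p = 0.9437). Eef1akmt1 and Eef1akmt2 had adjusted p-values of 0.9557 and 0.4836. Eef1akmt3, at 0.518 ± 0.24 CPM in Ad-Cre and 0.807 ± 0.11 CPM in Ad-GFP (SD, n = 4 each), passed as lower only without Ad-Cre replicate 1 (adjusted p = 0.03711, against 0.1148 with all libraries), and Eef1akmt4 only with thinned libraries (adjusted p = 0.02547, against 0.1347).

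The eIF1A domain genes were set apart by their levels. Eif1ad (chromosome 19 at 5366741 to 5371526, plus strand), the broadly expressed member, was at 41.1, 41.6, 44.8 and 40.3 CPM in the 4 Ad-Cre libraries, against 50.1, 47.8, 52.1 and 47.1 CPM in the 4 Ad-GFP libraries. It fell without overlap, with a log2 fold change of -0.23 ± 0.045 (SE; edgeR adjusted p = 0.0001896). Its exons overlap those of Banf1 on the other strand over 428 bases. The other 16 genes of this name form a cluster of like copies on chromosome 12, within 87494721 to 88324026. Together they had 4, 4, 0 and 0 counts in the Ad-Cre libraries and 3, 9, 10 and 11 counts in the Ad-GFP libraries, so the groups overlapped. That is 0.0939 CPM in Ad-Cre (8 counts, exact 95% Poisson interval 0.0405 to 0.185) and 0.485 CPM in Ad-GFP (33 counts, 0.334 to 0.682), intervals that cover counting error only and not the spread between libraries. No gene of the cluster passed the filter on low counts. In the authors' deposited table Eif1ad8 has an FDR of 0.0401 and a log2 fold change of -6.37, on 0 counts in every Ad-Cre library and 0, 2, 3 and 5 counts in the Ad-GFP libraries, and that fold depends on the floor the table sets for a mean of 0.

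In all, 21 of the 82 members could not be tested. They are the 16 genes of the chromosome 12 cluster, Eef1a2, Eif4ebp3, Eif4e1b, Eif4a3l1 and Eif4a3l2. Of these, 10 had 0 counts in all 8 libraries, which at the pooled depth of 153158977 counts allows a level of up to 0.0196 CPM each (3 counts). Eif4ebp3 had 0, 0, 0 and 3 counts in Ad-Cre and 0, 2, 0 and 2 counts in Ad-GFP.

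Among 67 tested genes of 8 other lists of the translation pathway 13 rose and 15 fell, 19.4% and 22.4%, against 19.8% of all genes called higher and 20.5% called lower. The calls in these lists are given for the main test only. Some passed narrowly, such as Dhx29, Tsc2, Gfm1 and Dph6 (edgeR adjusted p = 0.03631, 0.04251, 0.03817 and 0.0395). Termination and recycling had 0 of 6 higher and 2 lower, the release factor genes Etf1 and Gspt1, at 95.8% and 95.1% of Ad-GFP (median log2 fold change of the list -0.01). Among 8 initiation accessory genes 3 rose and 2 fell (median -0.06). Denr, which with MCTS1 recycles ribosomes and supports reinitiation, was at 120.1 ± 5.2 CPM in Ad-Cre and 156 ± 1.6 CPM in Ad-GFP (SD, n = 4 each; edgeR adjusted p = 1.401e-10). This fall to 77.3% of Ad-GFP exceeded that of every called member. Its partner Mcts1 did not pass (adjusted p = 0.6379). The rises were in the ATP-binding cassette genes Abcf1 (106%) and Abcf3 (112%) and the helicase gene Dhx29 (109%), and the other fall was Ddx3y. Of 6 genes for poly(A)-binding proteins and their regulators (median 0.05) 2 rose and 0 fell, Paip1 (112% of Ad-GFP) and Paip2 (108%), which encode a stimulator and an inhibitor of poly(A)-binding protein.

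Regulators upstream of the cap moved on both sides. Of 15 genes of mTORC1 and S6 kinase 4 rose and 4 fell, against 19.8% of all genes called higher and 20.5% lower. The median log2 fold change of the list was 0.05. Deptor, an inhibitor of mTOR, was at 33.0 ± 2.0 CPM in Ad-Cre and 23.6 ± 1.2 CPM in Ad-GFP (SD, n = 4 each; adjusted p = 1.132e-07). Pdcd4, which binds and inhibits eIF4A until S6 kinase marks it for degradation, was at 34.6 ± 1.1 CPM in Ad-Cre and 27.7 ± 0.86 CPM in Ad-GFP (adjusted p = 7.804e-06). Both were higher in Ad-Cre, at 140.0% and 125% of Ad-GFP. The other rises were Mlst8 (112%), an mTOR partner, and Tsc2 (106%), which restrains mTORC1, and Rptor, for the scaffold of mTORC1, fell to 91.5%. The kinase gene Rps6kb2 fell to 81.3%, and the genes of 2 negative regulators also fell, Akt1s1 to 84.0% and Ddit4 to 86.5%. Mtor itself was at 97.9 ± 3.3 CPM in Ad-Cre and 94.1 ± 5.9 CPM in Ad-GFP and did not pass (adjusted p = 0.2486). Of the 2 genes for the eIF4E kinases 1 fell (median -0.07): Mknk2 fell to 81.8% of Ad-GFP (adjusted p = 1.435e-08), and Mknk1 did not pass (adjusted p = 0.05249).

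Of 10 genes for eIF2 phosphatase subunits and for other regulators and targets of the integrated stress response 5 fell and 1 rose (median -0.09). Of all genes 20.5% were called lower and 19.8% higher. The falls were the transcription factor genes Atf4 (95.02%) and Atf5 (90.2%), the pseudokinase gene Trib3 (83.9%), the asparagine synthetase gene Asns (91.9%) and Chac1 (90.9%). The rise was Ddit3, encoding CHOP (112%). Atf4, Chac1 and Ddit3 passed narrowly (edgeR adjusted p = 0.04792, 0.04467 and 0.0481). Of 9 hypusine and diphthamide synthesis genes (median 0.03) 1 rose and 1 fell. The rise was Dph6 (111%), for the last step of diphthamide synthesis on eEF2. The fall was Dohh, whose enzyme completes hypusine on eIF5A, to 87.0% (adjusted p = 0.006002), and Dhps, of the first step, did not pass (adjusted p = 0.5305). Mitochondrial translation factors had 2 rises and 0 falls among 11 (median 0.09), Gfm1 at 108% and Guf1 at 121% of Ad-GFP.

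**Figure D5:**
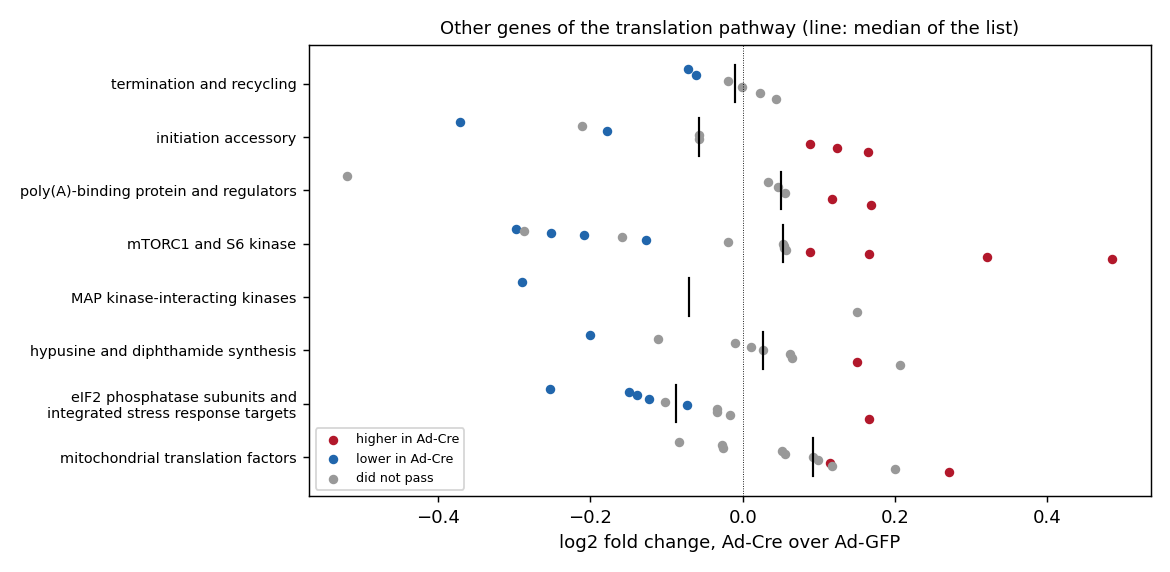
Log2 fold change of Ad-Cre over Ad-GFP (horizontal axis) of each tested gene in 8 lists of the translation pathway outside the initiation and elongation factors, with the median of each list as a line. Red passed as higher, blue as lower and grey did not pass. In all, 13 genes passed as higher and 15 as lower.

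The authors' deposited table gives 26 of the 82 members an FDR under 0.05, against 18.7% of all genes in it, and 25 of these were called here. No member called here has the other sign in the authors' deposited table. Its test is not named in the sources used here. Called here alone were Eif4ebp1, Eif6 and Eif3f, which have FDR values of 0.0557, 0.0701 and 0.0651 in the authors' deposited table.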

How the data were processed

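The 8 RNA-seq libraries of TGF-β stimulated renal cells were analysed from 1 deposited table of 22322 genes. Per the file headers it holds read counts and FPKM for each library, made by the authors from Trizol-extracted RNA. It also holds the authors' log2 fold change and the authors' p-value and FDR. The genome builds in the submitters' processing notes are GRCm38 and mm10. The sources used here name no aligner, counter, strand setting or annotation release.

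Counts were tested as deposited with edgeR 4.0.16 (R 4.3.3): TMM factors, filterByExpr (13337 genes kept), quasi-likelihood F test, no covariate, two-sided, Benjamini-Hochberg adjustment over all genes tested, threshold 0.05. The SE of a log2 fold change is its absolute value divided by the square root of F. Library totals were 15879244 to 23940043 counts, and the common biological coefficient of variation was 2.89%. Members were ranked by level per length in FPKM, as deposited by the authors. Marker levels and several sums over genes are in CPM, which is not scaled to gene length. Coordinates are 1-based from GENCODE M21 (GRCm38), which held all 82 members, and start windows are from RefSeq GRCm38.p6, which had 49 of them. Shares and sums over members carry no test.

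Alternatives were RLE and upper-quartile factors, no filter, a filter of 5 CPM, DESeq2 1.42.0, limma-voom (limma 3.58.1), limma on log2 FPKM with pseudocounts of 1 and 0.1, a replicate block, libraries thinned to 15879244 counts, and leaving out each library. The steps were tested on simulated data with the same dispersion for every gene. There 38% of 1.1-fold and 86% of 1.25-fold changes were recovered, so small changes can be missed. Members, complexes and gene lists were chosen with earlier results of these data known. Values in every library are given for the called members, the most abundant member of each complex per length and set paralog pairs, and from the other lists the called genes were to be named.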

Additional observations from a re-analysis of the deposited data

Results flagged for a closer look

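In 8 of 124 groups of 4 libraries a single library stood far from the other 3 by Dixon's test at its 95% critical value, and chance flags about 1 group in 20. In Ad-Cre, replicate 2 was the highest for Eif4h at 258.8 CPM (the others 245.6 to 247.7 CPM), replicate 4 the lowest for Eef1g at 544.0 CPM (the others 555.8 to 557.8 CPM), replicate 3 the lowest for Eef1akmt1 at 7.64 CPM (the others 8.11 to 8.17 CPM), and replicate 1 the highest for Eef2kmt at 17.1 CPM (the others 14.6 to 14.9 CPM). In Ad-GFP, replicate 4 was the lowest for Eif2s3y at 65.7 CPM (the others 69.0 to 69.6 CPM), for Eif3g at 81.8 CPM (the others 86.5 to 87.4 CPM) and for Eif3m at 92.0 CPM (the others 96.1 to 96.6 CPM). Ad-GFP replicate 1 was the lowest for Eif3i at 66.9 CPM (the others 72.4 to 73.3 CPM).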

How the results depend on the processing

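Of the 28 called members 17 kept their call in all 19 alternatives, and none of the 28 reversed its direction in any of them. Limma on log2 FPKM called 3530 genes with a pseudocount of 1 and 3520 with 0.1, against 5370 in the main test, and called 8 members higher with either pseudocount and with no filter. Leaving out 1 library at a time gave 9 to 14 members higher (9 without Ad-GFP replicate 4), 12 to 15 lower and 4816 to 5084 genes in all. The cause was not tested, beyond that fewer samples entered these fits. Other settings called 4365 (DESeq2) to 5498 (no filter) genes. Replicate numbers did not pair the samples (correlations of same-numbered deviations 0.083, 0.104, 0.0076 and -0.0115), and with the replicate block 5390 genes, 14 members higher and 14 lower passed, Suv39h1 staying at -0.33. Members under the filter could not be compared at this depth.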
